A study of Rattus norvegicus with 6 samples.

Results

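The genes of the mTOR complexes, of the TSC complex and of the relay and targets next to them were followed in rat nasal mucosa cells with and without overexpression of neuropeptide S. The 10 members were taken by symbol: Mtor, Rptor, Rictor, Mlst8, Akt1s1, Tsc1, Tsc2, Rheb, Rps6kb1 and Eif4ebp1. All 10 matched a row exactly among the 20653 genes of the deposited tables, and all 10 were among the 14505 genes with enough reads to be tested. They were compared in bulk RNA sequencing of 3 EMSC and 3 NPS-EMSC libraries. Per the labels, both groups were primary mesenchymal stem cells that came from rat nasal mucosa, genotype SD. The NPS-EMSC are the cells that the series title describes as overexpressing neuropeptide S, a short peptide that signals through a G protein-coupled receptor. The labels name no control vector for EMSC, no age or time point, and no separate animals or cultures behind the 3 libraries of a group. Effects of gene delivery or selection therefore cannot be told apart from those of the peptide, and p-values measure only the spread between these libraries, which may be technical.

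mTOR is a protein kinase that works in a pair of complexes. In complex 1 it is joined by Raptor, the product of Rptor, which brings in substrates, and by PRAS40, the product of Akt1s1, which restrains it. In complex 2 it is joined by Rictor, and the mLST8 subunit is common to both. The small GTPase Rheb switches complex 1 on at the lysosome, and the TSC complex, built on the products of Tsc1 and Tsc2, switches Rheb off. AKT phosphorylates TSC2 and PRAS40 and thereby relieves both brakes, which links these genes to the PI3K and AKT pathway in the series title. Complex 1 phosphorylates S6 kinase (Rps6kb1) and the translation repressor 4E-BP1 (Eif4ebp1). This control is exerted largely through phosphorylation and protein binding, which transcript levels do not measure.

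The libraries held 39082245 to 40261205 counted reads. Nps, the overexpressed gene, had 77014 to 93566 reads in the NPS-EMSC libraries and 0 to 10 in the EMSC libraries, as the labels have it. The stem cell surface markers Thy1, Nt5e and Eng were present in every library, from 12.3 CPM upwards, but not at equal levels. CPM is the reads of a gene scaled to the library's total over the tested genes, with edgeR's TMM scaling between libraries. The summed levels below use unscaled totals. All 9 listed stem cell markers were called (adjusted p under 0.05, edgeR), 7 higher and 2 lower in NPS-EMSC. For this and the marker counts below, 59.3% of all genes tested were called. Thy1 rose from 417 ± 8.15 to 1217 ± 34.0 CPM and Nt5e from 13.8 ± 1.5 to 61.7 ± 2.90 CPM, while Pdgfra fell from 1618 ± 109 to 837 ± 22.9 CPM and Nes from 12.2 ± 1.25 to 6.07 ± 0.212 CPM (SD, n = 3). Markers of other cell types were not equal between the groups either. The summed level of 10 leukocyte and macrophage markers was 59.7 to 72.3 CPM in EMSC against 9.34 to 11.4 CPM in NPS-EMSC. The summed level of 6 epithelial markers was 4.20 to 5.01 CPM in EMSC against 9.91 to 13.0 CPM in NPS-EMSC, that of 5 endothelial markers 2.68 to 3.15 and 2.25 to 2.91 CPM, and that of 5 skeletal muscle markers 14.2 to 15.3 and 18.2 to 22.8 CPM. Of the markers with enough reads, 7 leukocyte genes fell and 1 rose, 2 Schwann cell genes fell, 2 epithelial genes rose, 3 muscle genes rose and 1 fell, and 3 endothelial genes did not pass. The defining epithelial genes Epcam, Krt5, Krt14 and Cdh1 and the Schwann cell genes Sox10 and Mbp had too few reads to be tested. No listed marker was at 0 in all 6 libraries (0 genes). Most of the leukocyte sum in EMSC was Lyz2, a lysozyme gene of myeloid cells, which fell from 52.5 ± 7.71 to 3.84 ± 0.940 CPM (SD, n = 3). The pan-leukocyte gene Ptprc had 0.774 ± 0.267 CPM in EMSC against 0.00862 ± 0.0149 CPM in NPS-EMSC (SD, n = 3). The part of these marker differences in those of the members was not tested, and in bulk samples fewer cells of a type and less RNA per cell cannot be told apart.

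The start regions of 8 members were found among the promoters of RefSeq (build GRCr8), which run from 250 bases before to 50 bases after the start of the gene. Rptor and Eif4ebp1 had no entry. Of the 3 sequences shown here, those of Rictor and Rheb belong to the members with the largest rise, and that of Akt1s1 is shown because it shares a motif with Rheb. Each is written 5′ to 3′ on the strand of the gene, with motif matches in capitals.
Rheb, chr4:11013133-11013432, plus strand: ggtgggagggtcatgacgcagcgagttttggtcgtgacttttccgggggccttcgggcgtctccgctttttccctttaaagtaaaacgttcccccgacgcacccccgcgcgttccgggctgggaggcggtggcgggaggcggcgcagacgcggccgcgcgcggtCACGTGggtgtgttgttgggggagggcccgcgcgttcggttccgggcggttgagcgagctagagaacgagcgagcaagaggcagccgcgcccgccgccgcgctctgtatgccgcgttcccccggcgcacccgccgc
Rictor, chr2:57539029-57539328, plus strand: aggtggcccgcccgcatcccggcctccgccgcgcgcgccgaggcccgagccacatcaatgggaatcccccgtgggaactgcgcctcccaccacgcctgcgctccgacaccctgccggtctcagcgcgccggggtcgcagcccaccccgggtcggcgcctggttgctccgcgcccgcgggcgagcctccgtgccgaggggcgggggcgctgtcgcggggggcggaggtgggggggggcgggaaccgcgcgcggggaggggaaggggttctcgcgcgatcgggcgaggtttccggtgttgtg
Akt1s1, chr1:104469586-104469885, plus strand: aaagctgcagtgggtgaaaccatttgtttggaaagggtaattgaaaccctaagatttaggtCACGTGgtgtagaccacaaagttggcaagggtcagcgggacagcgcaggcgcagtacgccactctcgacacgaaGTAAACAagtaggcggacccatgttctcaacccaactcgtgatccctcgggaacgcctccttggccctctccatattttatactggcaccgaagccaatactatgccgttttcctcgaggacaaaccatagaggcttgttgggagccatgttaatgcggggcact
The motifs searched on both strands were the E-box CACGTG, to which the TFEB family and MYC can bind, the cAMP response element TGACGTCA, the C/EBP-ATF element TGATGNAA and the forkhead element GTAAACA. The E-box was found in Rheb, where it begins 86 bases before the start (position -86), and in Akt1s1, at position -189. Of all 33469 promoters in the RefSeq table, 6.42% hold it. The letters around it are GGTCACGTGGGT in Rheb and GGTCACGTGGTG in Akt1s1, and the longer form GTCACGTG, chosen after this was seen, occurs in 1.85% of all promoters. The forkhead element was found in Akt1s1 (position -115) and in Tsc1 (position 37), against 3.78% of all promoters. The cAMP response element, held by 1.83% of all promoters, and the C/EBP-ATF element, held by 3.98%, were found in 0 of the 8. The Rictor window holds none of the 4 motifs and is the richest of the 8 in G and C, at 78.3%, with 70.7% in Rheb, 51.7% in Akt1s1 and a median of 51.7% over all promoters. A match is a description of the letters and not a measurement of binding. Of the pair with the E-box, Rheb rose and Akt1s1 did not pass the test, and the difference between them was not tested.

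Transcripts of 5 of the 10 members rose in NPS-EMSC and none (0) fell in edgeR; at an unadjusted p under 0.05, 2 were lower, and DESeq2 also called 0 lower. The count of 0 lower was not stable: it was 3 under upper-quartile scaling, 2 without EMSC replicate 2, and 1 without EMSC replicate 1 or NPS-EMSC replicate 2. The 5 were Rictor, Rheb, Rptor, Eif4ebp1 and Mtor, by 1.10-fold to 1.36-fold. The 5 members that did not pass were Mlst8, Akt1s1, Tsc1, Tsc2 and Rps6kb1. The test was edgeR's quasi-likelihood test, and a gene was called when its p, adjusted by Benjamini and Hochberg's method for all genes tested, was under 0.05. Over all genes tested, 59.3% were called, 29.7% higher and 29.5% lower, so 5 of 10 is near the background. The changes of the members were small beside those of other genes. Their median absolute log2 fold change was 0.16, against 0.34 over all genes tested and 0.52 over called genes, and 2 of the 10 lay above the median of all genes tested. With direction, the median log2 fold change was 0.081 for the members and -0.0048 for all genes tested. The values of the groups did not overlap in 6 members, 5 higher and 1 (Mlst8) lower in NPS-EMSC libraries, where 64.7% of all genes tested did not overlap (32.4% higher and 32.3% lower). Tested against a minimum change of 1.2-fold with edgeR's glmTreat, Rheb (adjusted p = 0.00148) and Rictor (adjusted p = 0.00176) still passed, and 36.0% of all genes tested did (17.1% higher and 19.0% lower).

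**Figure D1:**
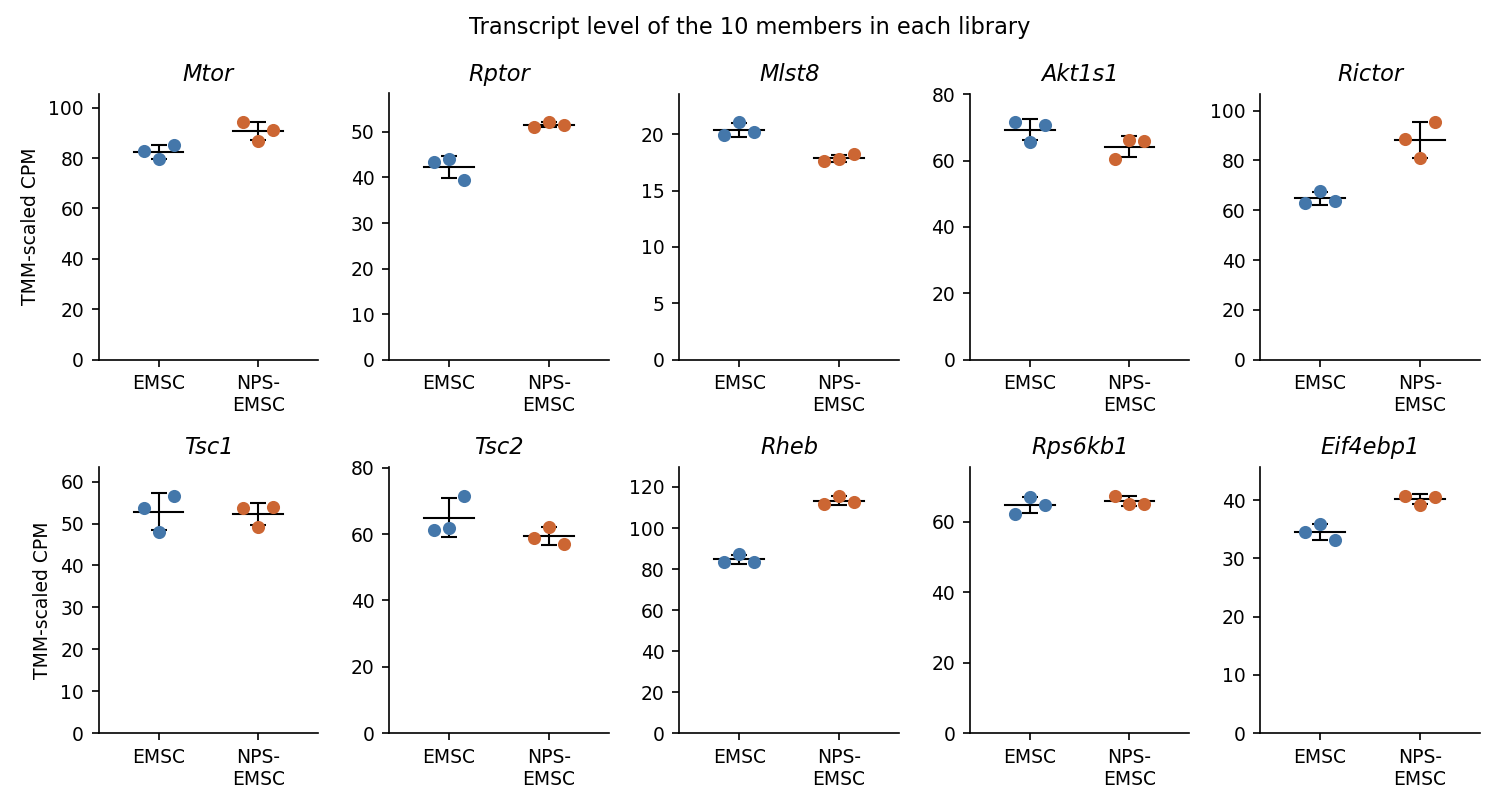
Level of each member in TMM-scaled CPM (vertical axes, starting at 0, with a scale of their own) in the 3 EMSC and 3 NPS-EMSC libraries; points are libraries, left to right replicates 1 to 3, long lines the mean and whiskers the SD. Rheb sits at 83.4 to 87.3 CPM in EMSC and 112 to 116 CPM in NPS-EMSC, while the points of Tsc1 and Rps6kb1 overlap between the groups.

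Mtor encodes the kinase itself and is the subunit that both complexes share with Mlst8. It stood at 82.7, 79.7 and 85.3 CPM in EMSC replicates 1 to 3 and at 94.3, 86.9 and 91.1 CPM in NPS-EMSC replicates 1 to 3. All NPS-EMSC libraries were above all EMSC libraries, with the lowest of them, replicate 2, close to the highest EMSC library. Mtor rose from 82.5 ± 2.82 to 90.8 ± 3.74 CPM (SD, n = 3), with a log2 fold change of 0.14 (SE 0.05, adjusted p = 0.0247). This call was lost without EMSC replicate 2 (adjusted p = 0.103), without NPS-EMSC replicate 1 (adjusted p = 0.118), without NPS-EMSC replicate 3 (adjusted p = 0.0745) and under upper-quartile scaling (adjusted p = 0.0844). On log2(FPKM + 1) values the log2 fold change was 0.084 (adjusted p = 0.218), and over all 16 alternatives the adjusted p was 0.0116 to 1.0.

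Rptor, the scaffold of complex 1 that recruits its substrates, stood at 43.5, 44.0 and 39.5 CPM in EMSC and at 51.1, 52.2 and 51.5 CPM in NPS-EMSC. The NPS-EMSC libraries were tightly grouped and all higher, and EMSC replicate 3 was the lowest library. Rptor rose 1.22-fold, from 42.3 ± 2.45 to 51.6 ± 0.538 CPM (mean ± SD, n = 3), a log2 fold change of 0.28 ± 0.06 (SE) with adjusted p = 3.24e-04.

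Rictor, the defining scaffold of complex 2, had the largest change of the members. It stood at 62.7, 67.7 and 63.9 CPM in EMSC and at 88.5, 81.1 and 95.4 CPM in NPS-EMSC. The groups were well apart, although the NPS-EMSC libraries spread more than those of EMSC. Rictor rose 1.36-fold, from 64.8 ± 2.60 to 88.3 ± 7.17 CPM (mean ± SD, n = 3), a log2 fold change of 0.45 ± 0.06 (SE) with adjusted p = 3.38e-07. In absolute size this change exceeded that of 60.1% of the genes tested. Its adjusted p was at most 0.00482 over the 16 alternatives.

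Mlst8, the small WD-repeat subunit of both complexes, went the other way without passing. It stood at 19.9, 21.1 and 20.2 CPM in EMSC and at 17.6, 17.8 and 18.2 CPM in NPS-EMSC, and the groups did not overlap. The means were 20.4 ± 0.614 and 17.9 ± 0.310 CPM (SD, n = 3), with a log2 fold change of -0.19 (SE 0.09, adjusted p = 0.0630, 95% interval -0.37 to -0.011). It passed in 5 of the 16 alternatives, among them upper-quartile scaling (log2 fold change -0.22, adjusted p = 0.0307) and log2(FPKM + 1) values (adjusted p = 0.0178). Over the alternatives its adjusted p was 0.0161 to 0.789.

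Akt1s1 encodes PRAS40, the complex 1 inhibitor that AKT phosphorylates. It stood at 71.6, 65.6 and 70.7 CPM in EMSC and at 60.6, 66.1 and 65.8 CPM in NPS-EMSC. EMSC replicate 2 was as low as the upper NPS-EMSC libraries, so the groups overlapped. The log2 fold change was -0.11 (SE 0.06, adjusted p = 0.0921, 95% interval -0.23 to 0.0047). Without EMSC replicate 2 it was -0.15 and passed (adjusted p = 0.0373), and the adjusted p was 0.0299 to 1.0 over the 16 alternatives.

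Tsc1 and Tsc2 encode hamartin and tuberin, the core of the complex that turns Rheb off, and neither passed. Tsc1 stood at 53.7, 48.0 and 56.7 CPM in EMSC and at 53.8, 49.3 and 53.9 CPM in NPS-EMSC, with the NPS-EMSC values inside the EMSC range. Its log2 fold change was -0.013 (adjusted p = 0.883), with a 95% interval of -0.15 to 0.12. Tsc2 stood at 61.1, 61.8 and 71.6 CPM in EMSC and at 58.7, 62.2 and 56.9 CPM in NPS-EMSC. EMSC replicate 3 was set above the rest, and NPS-EMSC replicate 2 lay among the EMSC libraries. The log2 fold change of Tsc2 was -0.13 (SE 0.06, adjusted p = 0.0761, 95% interval -0.26 to -0.0014). Tsc2 passed as lower without EMSC replicate 1 (-0.17, adjusted p = 0.0287), without EMSC replicate 2 (-0.16, adjusted p = 0.0437), without NPS-EMSC replicate 2 (-0.16, adjusted p = 0.0426) and under upper-quartile scaling (-0.16, adjusted p = 0.0262). Without EMSC replicate 3 its log2 fold change was -0.057 (adjusted p = 0.463), and the adjusted p of Tsc2 was 0.0262 to 1.0 over the 16 alternatives.

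Rheb, the GTPase between the TSC complex and mTOR, had the smallest p of the members. It stood at 83.4, 87.3 and 83.6 CPM in EMSC and at 112, 116 and 113 CPM in NPS-EMSC. The libraries of each group lay close together and the groups were far apart relative to that spread. Rheb rose 1.34-fold, from 84.8 ± 2.21 to 113 ± 2.20 CPM (mean ± SD, n = 3), a log2 fold change of 0.42 ± 0.05 (SE) with adjusted p = 4.25e-08. Its adjusted p was at most 0.00148 over the 16 alternatives.

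Of the main substrates of complex 1, Eif4ebp1 passed and Rps6kb1 did not, and the difference between them was not tested. Rps6kb1, the gene of S6 kinase 1, stood at 62.3, 67.0 and 64.9 CPM in EMSC and at 67.4, 65.0 and 65.2 CPM in NPS-EMSC. The groups overlapped, and the log2 fold change was 0.026 (adjusted p = 0.702, 95% interval -0.085 to 0.14). Eif4ebp1, the gene of the repressor that holds the cap-binding protein eIF4E, stood at 34.4, 35.9 and 33.2 CPM in EMSC and at 40.8, 39.2 and 40.5 CPM in NPS-EMSC. All NPS-EMSC libraries were higher, and Eif4ebp1 rose 1.16-fold, from 34.5 ± 1.37 to 40.2 ± 0.870 CPM (mean ± SD, n = 3), a log2 fold change of 0.22 ± 0.07 (SE) with adjusted p = 0.00622.

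**Figure D2:**
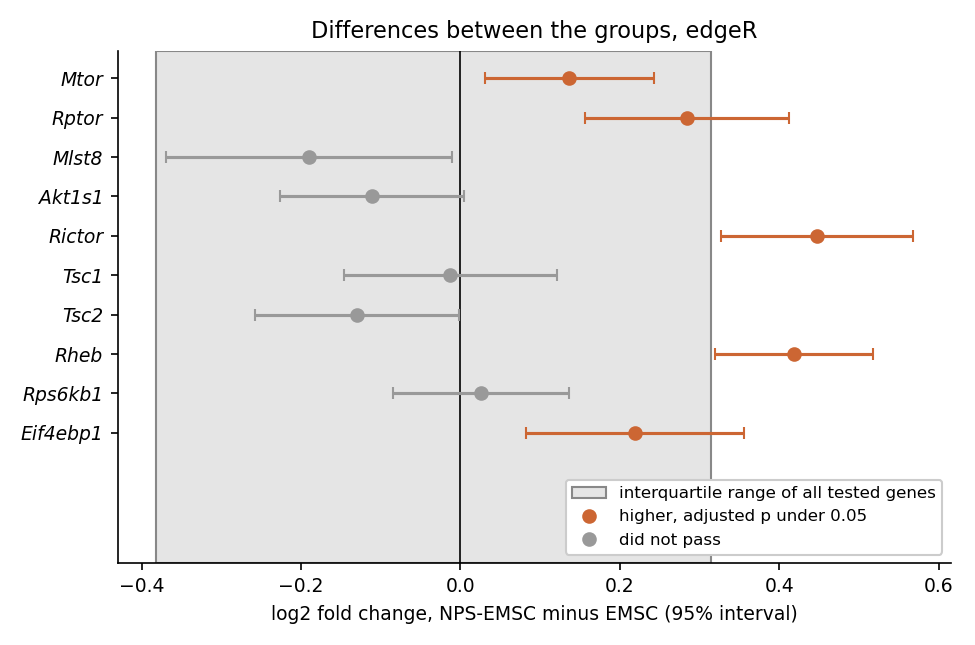
Log2 fold change of each member (horizontal axis, NPS-EMSC minus EMSC, edgeR) with its 95% interval; orange points passed as higher, grey points did not pass, and the grey band is the interquartile range of all genes tested, -0.38 to 0.31. Rictor and Rheb lie above the band and the other 8 members within it.

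The levels of the members relative to each other were read from FPKM, which divides by gene length. In EMSC the order by mean FPKM was Rheb (48.1 ± 0.819), Eif4ebp1 (41.4 ± 1.43), Akt1s1 (28.7 ± 1.63), Rps6kb1 (11.5 ± 0.297), Tsc2 (11.0 ± 1.0), Mtor (9.81 ± 0.402), Rictor (6.93 ± 0.207), Rptor (6.41 ± 0.369), Tsc1 (5.43 ± 0.494) and Mlst8 (5.02 ± 0.0987), each with SD and n = 3. Rps6kb1 and Tsc2, and Tsc1 and Mlst8, overlapped with their neighbour in this order. The relay and the inhibitory or repressor proteins Rheb, 4E-BP1 and PRAS40 thus had several times more transcript per length than the kinase and its scaffolds. In NPS-EMSC the first 4 places were the same, at 62.4 ± 1.56, 46.7 ± 0.790, 25.8 ± 1.38 and 11.3 ± 0.171 FPKM. Mtor (10.5 ± 0.370) then stood before Tsc2 (9.79 ± 0.482), and Tsc2 overlapped with both Mtor and Rictor (9.17 ± 0.728). Rptor (7.58 ± 0.123), Tsc1 (5.22 ± 0.241) and Mlst8 (4.26 ± 0.0881) came last without overlap. FPKM does not carry the TMM scaling, and it rests on 1 fixed length per gene, from 846 bases for Eif4ebp1 to 9861 for Tsc1, whatever isoforms the cells used.

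**Figure D3:**
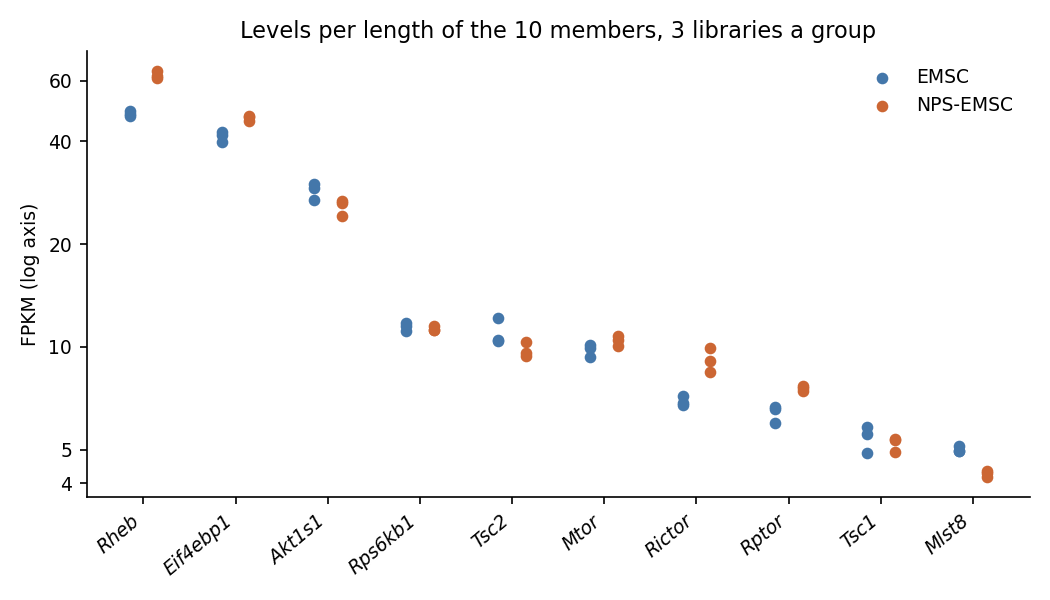
FPKM of the 10 members (vertical log axis) in each of the 6 libraries, ordered by the EMSC mean; blue points are EMSC and orange points NPS-EMSC. Rheb, Eif4ebp1 and Akt1s1 lie above 20 FPKM in every library and the other 7 members below 13 FPKM.

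Ratios of 2 transcripts within a library do not depend on how libraries are scaled. Of 8 pairs compared, 5 had groups without overlap, 4 with a higher and 1 with a lower ratio in NPS-EMSC. Among single genes, 64.7% of all tested did not overlap in CPM, and the share over other gene pairs was not computed. Whether these pairs separate the groups more often than other pairs was therefore not tested. An exact two-sided permutation test of 3 against 3 cannot go below p = 0.10, and these 5 pairs reached it (adjusted over the 8 pairs, p = 0.16). The ratio of Rheb to its inhibitor Tsc2 was 4.56, 4.71 and 3.89 in EMSC and 6.35, 6.21 and 6.60 in NPS-EMSC. That of Mtor to Mlst8 was 2.01, 1.82 and 2.04 in EMSC and 2.59, 2.36 and 2.42 in NPS-EMSC. The ratio of the inhibitor Akt1s1 to the scaffold Rptor was the lower one, at 4.50, 4.07 and 4.89 in EMSC and 3.24, 3.46 and 3.49 in NPS-EMSC. In each of these 3 ratios no library of one group reached the range of the other.

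The repressor genes showed the largest difference among the 8 ratios. Eif4ebp1 over its paralog Eif4ebp2 was 1.98, 2.15 and 1.82 in EMSC and 3.09, 3.10 and 3.23 in NPS-EMSC, a difference of 0.67 on the log2 scale. Eif4ebp2 fell from 121 ± 5.17 to 88.6 ± 2.39 CPM while Eif4ebp1 rose, so the pair moved in opposite directions (adjusted p = 2.02e-08 for Eif4ebp2, edgeR). Eif4ebp1 over Eif4e, the gene of the cap-binding protein it holds, was 1.51, 1.59 and 1.43 in EMSC and 1.94, 1.59 and 1.74 in NPS-EMSC. Here NPS-EMSC replicate 2 barely exceeded EMSC replicate 2. The ratios of Rictor to Rptor (means 1.08 ± 0.0617 and 1.21 ± 0.107, SD, n = 3, exact permutation p = 0.20), of Tsc1 to Tsc2 (0.493 ± 0.0333 and 0.535 ± 0.0497, exact permutation p = 0.20) and of Rps6kb1 to Rps6kb2 (1.54 ± 0.311 and 1.49 ± 0.190, exact permutation p = 1.0) overlapped between the groups. With a smallest possible p of 0.10, the test could not separate the groups at 0.05 for any of the 8 ratios.

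**Figure D4:**
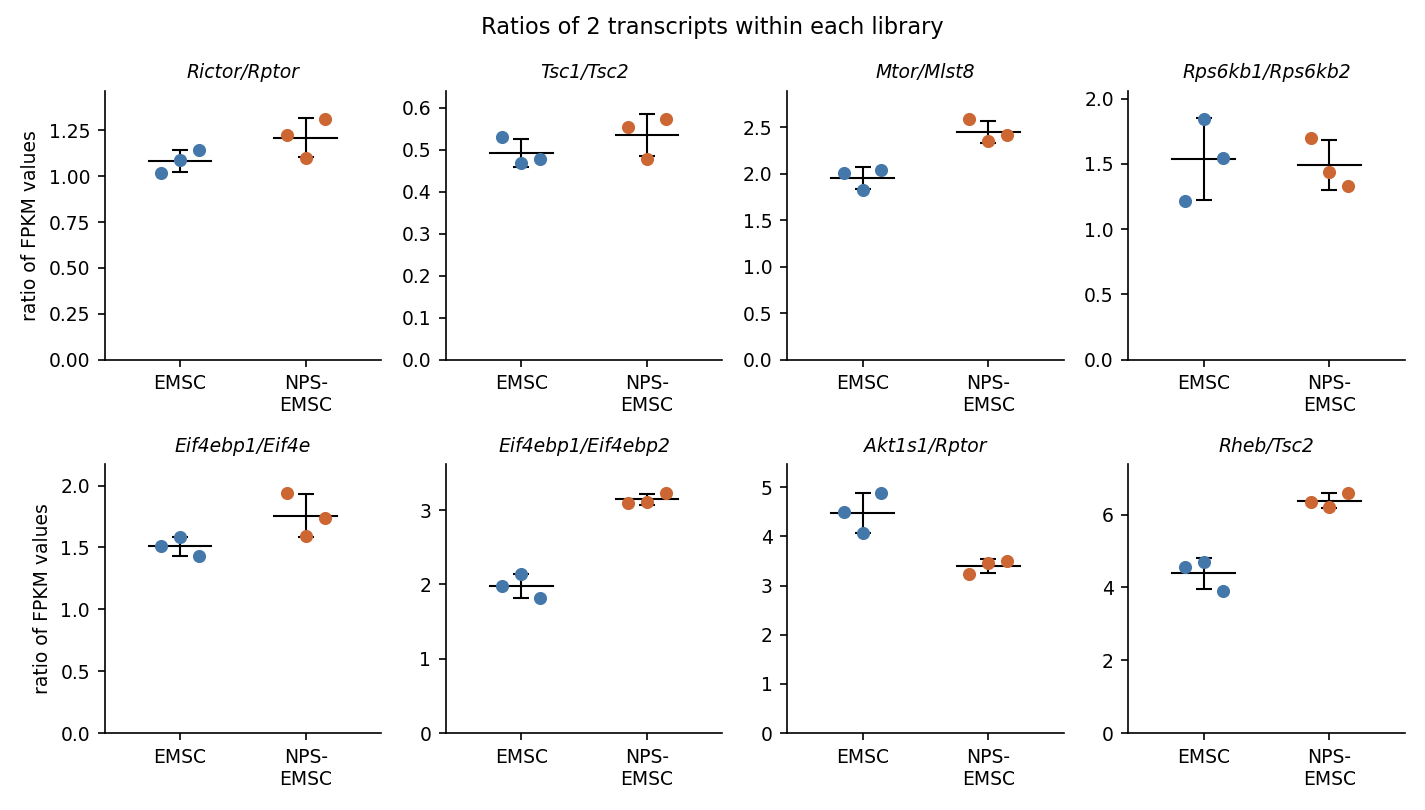
Ratio of the FPKM values of 2 genes within each library (vertical axes, starting at 0), with points for libraries, long lines for the mean and whiskers for the SD of 3 libraries. Eif4ebp1/Eif4ebp2 and Rheb/Tsc2 separate the groups, at 1.82 to 2.15 against 3.09 to 3.23 and at 3.89 to 4.71 against 6.21 to 6.60, and Rps6kb1/Rps6kb2 does not.

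Several members lie beside or across other genes, and how the authors' counting treated shared stretches, strand or reads that match near-identical copies is not given in the sources used here. In RefSeq, Angptl7 lies across the span of Mtor. It had 465 reads over the EMSC group, or 4.64% of the reads of Mtor there, and 12 in NPS-EMSC, the opposite direction to Mtor. Bricd5, across Mlst8, had 9 and 10 reads. Pkd1, the polycystin 1 gene on the other strand, meets Tsc2 and rose from 210 ± 10.1 to 299 ± 38.8 CPM (mean ± SD, n = 3), a log2 fold change of 0.51 with adjusted p = 1.89e-04, against the direction of Tsc2. Nthl1, a DNA repair gene within 500 bases of the other end of Tsc2 and read from the opposite strand, also rose (log2 fold change 0.61, adjusted p = 7.62e-05). Rnft1 overlaps Rps6kb1 on the other strand and rose by 0.21 (adjusted p = 0.00129), while Tbc1d17, on the other strand within 500 bases of Akt1s1, had 0.14 (adjusted p = 0.0548). The part of these neighbours in the values of the members was not tested.

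Calls over the whole table were also counted by gene length, in 4 equal groups of tested genes. In the group with the longest models, 26.9% were called higher and 37.5% lower, with a median log2 fold change of -0.089, and in the group with the shortest 32.1% and 22.0%, with a median of 0.068. Mtor, Rptor, Rictor, Tsc1, Tsc2 and Rps6kb1 belong to the longest group, and the first 3 of these rose. Rheb and Eif4ebp1 belong to the shortest. The part of this trend in the members' differences was not tested.

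The genes whose pattern over the 6 libraries was most like that of Rictor were sought among 9219 others with a mean of at least 10 CPM. Likeness was the root mean square difference in log2 CPM after setting each gene's EMSC mean to 0. The closest were Sp140 (0.033), LOC100912557 (0.034) and Alkbh1 (0.042), which rose by 0.43, 0.44 and 0.41 on the log2 scale. A rise near that of Rictor was fixed by this matching and is not a further result, and a shared regulation was not tested. No member was called lower (0 genes), so no gene was matched to a decrease.

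Around the members, 78 of 82 listed genes of the same pathway were tested. Of these, 30 rose, 21 fell and 27 did not pass, or 65.4% called beside the 59.3% of all genes tested. Their median log2 fold change was 0.073 and the median absolute value 0.25, also below that of all genes tested. By list, the share called was 37.5% for the other subunits, 45.5% for GATOR and KICSTOR and 58.3% for the Rag GTPases, Ragulator and folliculin. It was 66.7% for the other kinase substrates, 73.3% for translation, 77.8% for LKB1 and AMPK and 100% for the amino acid and stress inputs. These lists had 8 to 15 tested genes each. Rragb, Seh1l and Samtor had no row under the symbols used, Prkag3 had too few reads to be tested, and Kics2 was found under the older symbol RGD1565498.

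The other subunits of the complexes included 3 that fell. The other 5 of the 8 tested did not pass, and the median log2 fold change was -0.14. Deptor, the gene of a direct inhibitor of mTOR in both complexes, stood at 277, 303 and 323 CPM in EMSC and at 186, 165 and 183 CPM in NPS-EMSC. All NPS-EMSC libraries were lower, by more than the spread within a group. Deptor fell with a log2 fold change of -0.76 (SE 0.06, adjusted p = 9.90e-11), the largest change among the subunit genes that passed, members included. Prr5, the gene of the complex 2 subunit Protor-1, fell from 9.72 ± 0.337 to 6.96 ± 0.733 CPM (log2 fold change -0.48, adjusted p = 0.00335), opposite to Rictor, which it binds. Tbc1d7, the third subunit of the TSC complex, fell with -0.25 (adjusted p = 0.0346).

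The genes that bring complex 1 to the lysosome rose or did not pass. Of 12 tested genes of the Rag GTPases, the Ragulator and folliculin, 7 rose and 5 did not pass, with a median of 0.16. The share called, 58.3%, was near the 59.3% of all genes tested. Against a minimum change of 1.2-fold, 2 of the 12 passed, beside 36.0% of all genes tested. Rragd, one of the 4 Rag GTPase genes, rose from 0.872 ± 0.0676 to 3.98 ± 0.115 CPM (mean ± SD, n = 3), a log2 fold change of 2.13 ± 0.25 (SE) with adjusted p = 6.00e-08. The folliculin partner genes Fnip2 and Fnip1 rose by 0.80 and 0.34, and the Ragulator gene Lamtor2 by 0.35. Among 11 tested genes of GATOR1, GATOR2 and KICSTOR, which relay amino acid supply to the Rag GTPases, 3 rose and 2 fell. Those that rose belong to GATOR2, which favours complex 1 activity: Wdr59 by 0.61, Sec13, which also serves in vesicle coats and nuclear pores, by 0.52, and Wdr24 by 0.26. Mios, also of GATOR2 and named after its values were seen, had the other sign without passing, at 17.4 ± 0.992 and 14.8 ± 1.54 CPM (log2 fold change -0.23, adjusted p = 0.0544). Nprl2, of the inhibitory GATOR1, fell with -0.34 (adjusted p = 0.00332), and so did Itfg2 of KICSTOR with -0.36 (adjusted p = 0.0366), which was named after its values were seen. The other GATOR1 genes, Nprl3 (log2 fold change 0.087, adjusted p = 0.499) and Depdc5 (-0.0075, adjusted p = 0.948), did not pass. They too were named after their values were seen. Of the 11 genes, 45.5% were called, below the 59.3% of all genes tested. Against a minimum change of 1.2-fold, 2 of the 11 passed, Wdr59 and Sec13, beside 36.0% of all genes tested.

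The sensors of amino acids and stress all changed, in both directions. Of 8 tested, 4 rose and 4 fell, with a median of -0.028 and a median absolute value of 0.65. The sestrin genes, whose products restrain complex 1 when leucine is scarce or the cell is stressed, did not move together. Sesn1 fell from 34.1 ± 0.798 to 16.4 ± 1.69 CPM (mean ± SD, n = 3), a log2 fold change of -1.06 ± 0.08 (SE) with adjusted p = 5.95e-11 and Sesn3 from 141 ± 17.5 to 73.6 ± 3.86 CPM, while Sesn2 rose from 32.5 ± 2.09 to 51.8 ± 2.59 CPM (log2 fold change 0.67). Sar1b, a leucine sensor that also acts in vesicle transport, rose by 0.50. In the list of LKB1 and AMPK, the energy sensor that restrains complex 1 through TSC2 and Raptor, 6 of 9 tested genes rose and 1 fell. Prkab2, a regulatory beta subunit, rose from 27.2 ± 3.2 to 64.8 ± 2.17 CPM, a log2 fold change of 1.25 ± 0.07 (SE) with adjusted p = 1.78e-13, and the catalytic subunit gene Prkaa2 from 1.04 ± 0.583 to 7.06 ± 0.361 CPM. Cab39, a partner of LKB1, rose by 0.45 and Prkab1 by 0.25. The 7 calls in this list became 4 on log2(FPKM + 1) values without a filter. Against a minimum change of 1.2-fold, 3 of the 9 passed, beside 36.0% of all genes tested.

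Downstream of complex 1 lie the genes of translation. Of 15 tested, 2 rose and 9 fell, where 29.7% of all genes tested rose and 29.5% fell. The median log2 fold change of the 15 was -0.13. Their median absolute value was 0.14, against 0.34 over all genes tested. Eef2k, the kinase that halts elongation and that S6 kinase inhibits, fell from 70.1 ± 1.37 to 30.5 ± 1.55 CPM (mean ± SD, n = 3), a log2 fold change of -1.2 ± 0.06 (SE) with adjusted p = 6.90e-15. Pdcd4, an inhibitor of the helicase eIF4A that S6 kinase marks for degradation, fell with -0.84. The elongation factor gene Eef2 fell with -0.42 and Eif4ebp2 with -0.45. The count of 11 called was 7 without NPS-EMSC replicate 3. Against a minimum change of 1.2-fold, 4 of the 15 passed, beside 36.0% of all genes tested. Among 15 genes of other kinase substrates and the start of autophagy, 8 rose and 2 fell, with a median of 0.18. Of these 15, 5 passed against the minimum change of 1.2-fold. Rb1cc1, the gene of the ULK complex scaffold FIP200, rose from 129 ± 4.35 to 257 ± 7.78 CPM, a log2 fold change of 0.99 ± 0.05 (SE) with adjusted p = 1.10e-15, and Mitf, of the TFEB family, rose by 0.76. Grb10, an adaptor that complex 1 stabilises, fell from 613 ± 7.63 to 383 ± 20.4 CPM, and Sgk1, a kinase that complex 2 activates, fell with -0.34.

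**Figure D5:**
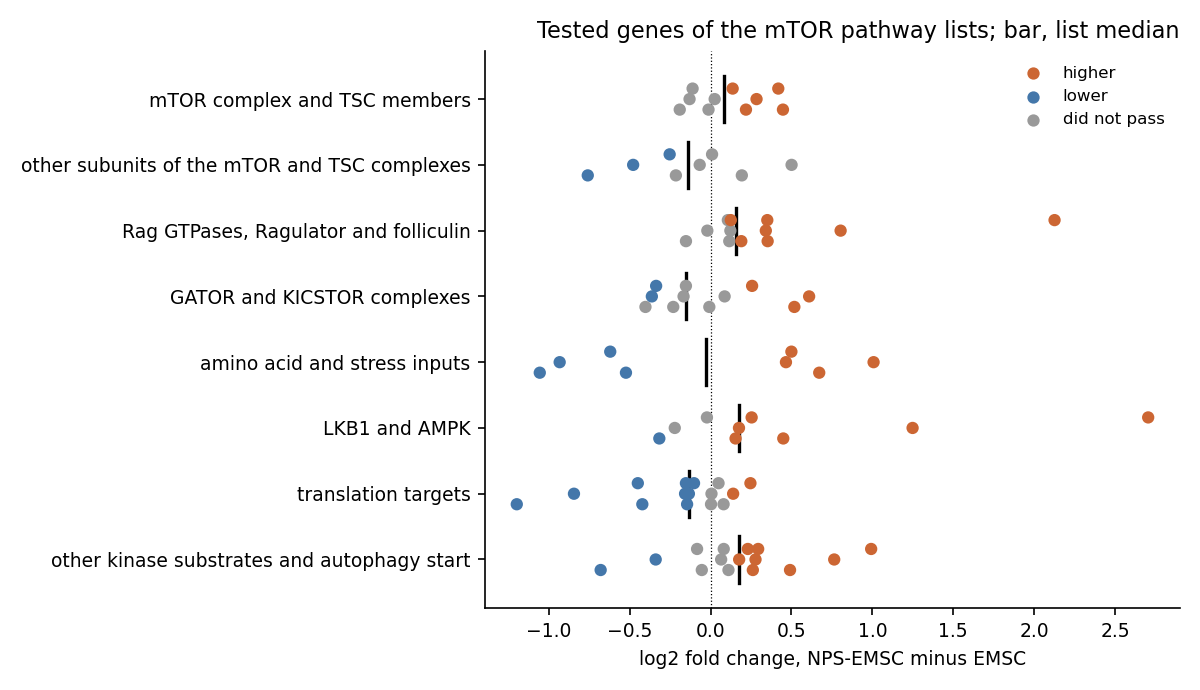
Log2 fold change (horizontal axis, NPS-EMSC minus EMSC) of every tested gene of the members and the 7 other lists, 1 point a gene, coloured by call; black bars are list medians. The members span -0.19 to 0.45, while Deptor, Sesn1, Eef2k, Prkaa2 and Rragd lie beyond that range.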

How the data were processed

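Total RNA of 3 EMSC and 3 NPS-EMSC libraries was sequenced, and the authors deposited raw read counts per gene and FPKM values of the same 20653 genes. StringTie, HTSeq, HISAT2, fastp, DESeq and R 3.2.0 appear in the submitters' processing notes without a role. Build, annotation and strand setting: not given in the sources used here. For the 10 members, the deposited FPKM equals the count over 1 fixed length and the column total. Counts were fitted with edgeR 4.0.16 (R 4.3.3; TMM, filterByExpr with minimum count 10 and total 15, robust glmQLFit and glmQLFTest, prior count 2). P-values were adjusted over 14505 genes. A positive log2 fold change is higher in NPS-EMSC, the SE is the absolute value over the square root of F, and CPM is TMM-scaled except for summed marker levels, which use unscaled totals. The procedure was tested on simulated counts. Alternatives were RLE and upper-quartile scaling, DESeq2 1.42.0, 2 other count filters, limma 3.58.1 on log2(FPKM + 1) and log2(FPKM + 0.1) at a minimum of 0.5 FPKM in 3 libraries (the first also without it), a replicate block, glmTreat, and leaving out each library. Named were all members, up to 4 called genes per pathway list by smallest p, and genes like Rictor in pattern. Members and lists were chosen with earlier results of these data known. Replicates differed by more than sampling noise. The summed level of the Schwann cell markers is not reported here.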

Additional observations from a re-analysis of the deposited data

How the results depend on the processing

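Over the 16 alternatives Rictor, Rheb, Rptor, Eif4ebp1 and Mtor stayed higher and Mlst8, Akt1s1 and Tsc2 lower in fitted value. Leaving out 1 library gave -0.078 to 0.038 for Tsc1 and -0.0047 to 0.050 for Rps6kb1. Tsc1 turned to 0.038 without EMSC replicate 3 and 0.031 without NPS-EMSC replicate 2. Rps6kb1 turned to -0.0081 under upper-quartile scaling, to -0.017 on log2(FPKM + 1) values with or without the filter, to -0.018 on log2(FPKM + 0.1) values and to -0.0047 without EMSC replicate 1. Both genes were near 0, and the cause was not tested. Requiring a change above 1.2-fold left 5229 called genes, 2 called members and 26 called genes in the other pathway lists, since it asks for a larger change. Leaving out 1 library gave 7870 to 8341 called genes, 4 to 6 called members and 41 to 52 called pathway genes. The log2 ratio of Rps6kb1 to Rps6kb2 differed by -0.19 to 0.11, turning positive without EMSC replicate 2 or NPS-EMSC replicate 3. The other 7 ratios kept their sign. The labels do not say whether same-numbered libraries of the groups were paired. Deviations from the group mean correlated at -0.060, 0.075 and 0.052 for same-numbered libraries, and at -0.15 to 0.11 for differently numbered ones. With 3 libraries a group, these values do not settle whether the libraries were paired. With the replicate block, 8588 genes and 5 members were called, and no member changed its call. A count of 0 members lower in edgeR, where Mlst8 and Tsc2 had an unadjusted p of 0.0385 and 0.0477, became 3 under upper-quartile scaling, 2 on log2(FPKM + 1) and log2(FPKM + 0.1) values, and 1 without the filter on log2(FPKM + 1) values and with the filter of 1 CPM. It was 2 without EMSC replicate 2, 1 without EMSC replicate 1, 1 without NPS-EMSC replicate 2, and 0 in the other 8 alternatives, DESeq2 among them. Mlst8 had the fewest reads of the members, 674 to 852 per library.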
